A study of Triticum aestivum with 6 samples.

Results

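The starchy endosperm of developing bread wheat grain (Triticum aestivum, cultivar Banks) was compared between 14 and 9 days post anthesis (DPA). The comparison rests on 2 of the 6 libraries of the series, the library titled 14 DPA En and the library titled 9 DPA En. The other libraries are starchy endosperm at 6 DPA and, at 6, 9 and 14 DPA, aleurone, the tissue that surrounds the starchy endosperm. All 6 come from untreated grain dissected by hand, and each is a pool of at least 5 seeds taken over 3 spikes and 3 plants. With a single library per group there is no replicate error and no p-value, and every difference below is a difference between libraries. The 14 DPA library held 37502901 reads and the 9 DPA library 4104682, so the deeper library was thinned at random to 4104682 reads. Both libraries then carried the same number of reads, called equal depth here.

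Starchy endosperm is the storage tissue of the cereal grain. During grain filling its cells accumulate starch and storage proteins, the gliadins and glutenins that form gluten, and later die. Genes for wheat storage proteins form large families of similar members, and reads of such members often match several of them.

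Each file lists the same 221925 transcript sequences, and none (0) of their identifiers matched the gene table used here. Sequences are therefore described by level, change, length and share of unique reads, and not by function, and the tissue label was not checked against marker genes. Several sequences can stand for the same gene. Of the identifiers, 93508 begin with TC and 128417 have other forms.

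The 14 DPA starchy endosperm placed far more of its transcripts on few sequences than the 9 DPA tissue. At equal depth 41.65% of the reads would have to move to other sequences to turn the 9 DPA profile into the 14 DPA profile. There were 33214 sequences with a larger share of reads at 14 DPA and 74010 with a smaller share. These are shares of library totals, in which a larger share for some sequences lowers that of the others. Any difference was counted, with no allowance for counting error. The smaller shares include 12513 sequences with 1 read at 9 DPA and none at 14 DPA, and the larger shares 7349 of the reverse kind. Of the total gain, 50% fell on 93 sequences, while 50% of the total loss was spread over 2477. The 93 sequences held 27.99% of reads at 14 DPA and 7.112% at 9 DPA, and the 2477 held 14.02% at 14 DPA and 34.85% at 9 DPA.

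In aleurone the same interval, 14 against 9 DPA, gave 51.94% of reads on other sequences. There 638 sequences made up 50% of the gain and 1181 made up 50% of the loss. In starchy endosperm, 9 against 6 DPA gave 41.89%, with 596 sequences for the gain and 1293 for the loss. That comparison shares the 9 DPA library with the present one. The differences between these intervals and tissues were not tested.

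**Figure D1:**
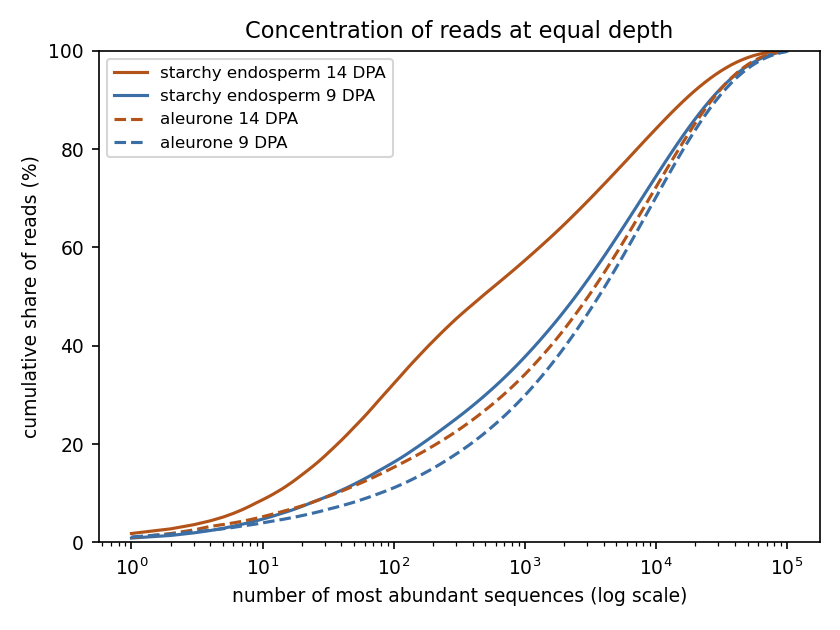
Cumulative share of reads (y axis, percent) against the number of most abundant sequences (x axis, log scale) at equal depth in starchy endosperm (solid) and aleurone (dashed) at 14 and 9 DPA. The 100 most abundant sequences held 32.27% of reads in 14 DPA starchy endosperm and 16.3% at 9 DPA.

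The excess at 14 DPA lay within the leading sequences. The 10 most abundant held 8.675% of reads at 14 DPA and 4.75% at 9 DPA, and the 1000 most abundant held 57.35% and 37.72%, again 14 DPA first. In levels per length, 138 sequences reached 1000 RPKM (reads divided by sequence length and by the library total) at 14 DPA and 70 did so at 9 DPA, with 58 in both. At the lower limit of 10 RPKM the order was the other way, with 13575 sequences at 14 DPA and 19622 at 9 DPA. RPKM uses the library total, so a larger share for some sequences lowers the values of the others. The order at a fixed limit can therefore depend on the scaling, and these counts were not made with another scaling.

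Of the 100 most abundant sequences at 14 DPA, 55 were also among the 100 of 9 DPA. These 55 held 22.23% of reads at 14 DPA and 11.39% at 9 DPA, and 48 of them had more reads at 14 DPA. The 45 that led at 14 DPA only held 10.05% of reads at 14 DPA and 1.537% at 9 DPA, where their median rank was 286. Only 4 of them ranked beyond 1000 at 9 DPA. The 45 that led at 9 DPA only held 2.533% of reads at 14 DPA and 4.912% at 9 DPA, with a median rank of 224 at 14 DPA, and 2 of them ranked beyond 1000 there.

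The 4-fold comparison asked which sequences differed most between the stages. It took the 16413 sequences with at least 50 reads in the library where they had more reads, at equal depth, and set counts under 3 reads at 3. With TMM scaling (trimmed mean of M values, which centres the bulk of the sequences), 2092 sequences were at least 4-fold higher at 14 DPA and 1325 at least 4-fold lower. These are 12.7% and 8.07% of those considered, and 20.8% were called in either direction. With library totals, 1215 (7.4%) were higher and 2992 (18.2%) lower, 25.6% in all. The balance thus turned with the scaling, and 61.2% of the calls were higher at 14 DPA with TMM against 28.9% with library totals.

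TMM places every log2 ratio of 14 to 9 DPA 0.77 higher than library totals, a factor of 1.71. Library totals are a closed sum, in which a larger share for some sequences lowers the share of all others. The median log2 ratio over the sequences considered was -0.02 with TMM and -0.80 with library totals. Which of the scalings is nearer to transcripts per cell cannot be told apart with these files, and in bulk tissue fewer cells of a type and less RNA per cell cannot be told apart either. The calls were nested, so that 1215 sequences were higher and 1325 lower under both scalings. Another 877 were higher with TMM only and 1667 lower with library totals only, and 11329 were within 4-fold under both.

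**Figure D2:**
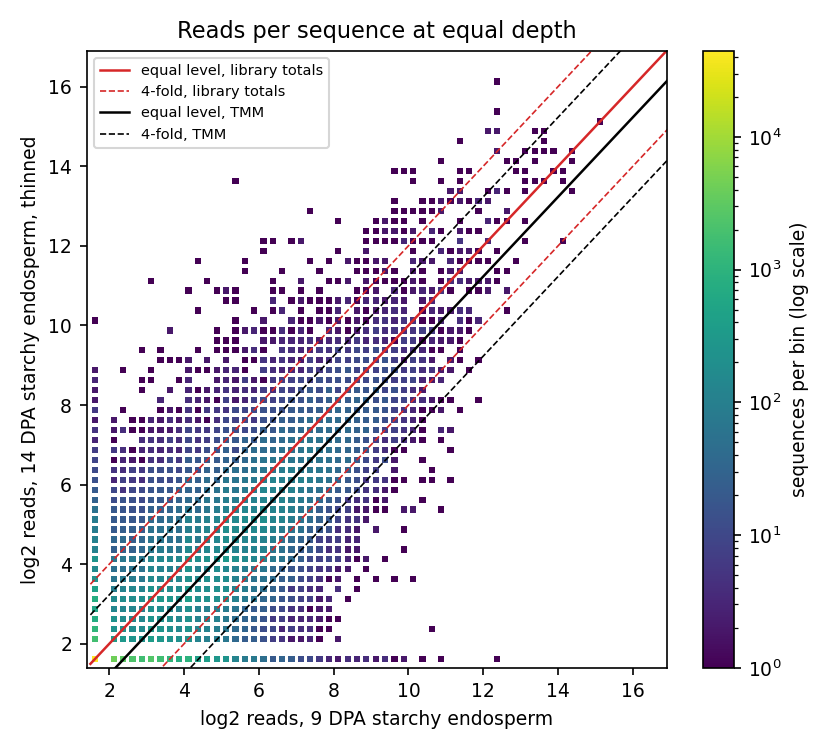
Reads per sequence at equal depth, 14 DPA (y axis, log2) against 9 DPA (x axis, log2), with counts under 3 set at 3 and colour giving the sequences per bin on a log scale. The lines of equal level by TMM (black) and by library totals (red) lie 0.77 log2 units apart, and the dashed lines mark 4-fold.

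**Figure D3:**
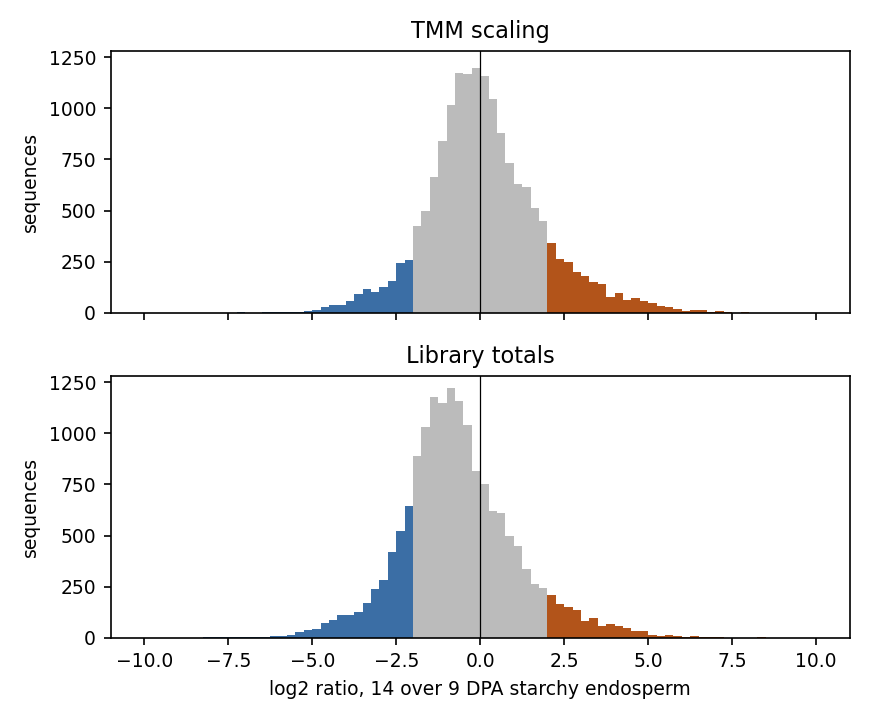
Numbers of sequences (y axis) by log2 ratio of 14 over 9 DPA (x axis) for the 16413 sequences considered, with TMM (top) and library totals (bottom); orange and blue bars are at least 4-fold higher and lower at 14 DPA. With TMM the higher side is the longer, with 2092 sequences against 1325.

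Allowing for counting error, most of the higher calls stayed beyond 4-fold and most of the lower ones did not. The exact (Clopper-Pearson) 95% interval of the ratio covers counting error only. With TMM its near side lay beyond 4-fold for 1436 of the 2092 higher sequences and 544 of the 1325 lower ones. The near side lay beyond 2-fold for all 2092 higher and for 1301 lower sequences. The read minimum and the 4-fold limit largely set that 2-fold result, so it says little about counting error. For 4275 of the 16413 sequences (26.0%) the interval included equal levels with TMM. With library totals the near side lay beyond 4-fold for 759 of the 1215 higher sequences and 1407 of the 2992 lower ones. In number, more lower than higher sequences thus stayed beyond 4-fold with library totals, and fewer with TMM.

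The sequences higher at 14 DPA with TMM held 36.95% of reads at 14 DPA and 6.958% at 9 DPA. Those lower at 14 DPA held 0.5251% at 14 DPA and 6.251% at 9 DPA. The 11329 within 4-fold held 48.97% at 14 DPA and 60.79% at 9 DPA. These sets were chosen on the same libraries, and the shares describe them. By fold, 1608 of the 2092 higher sequences were between 4-fold and 16-fold, 418 between 16-fold and 64-fold and 66 at 64-fold or more. Of the lower sequences, 1159 were between 4-fold and 16-fold, 143 between 16-fold and 64-fold and 23 at 64-fold or more. At 14 DPA 159 of the 1159 and 22 of the 23 had 3 reads or fewer, and the folds of those under 3 reads are lower bounds. At 9 DPA 66 of the 418 and 32 of the 66 higher sequences had 3 reads or fewer, with the same limit.

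Most reads of the higher sequences lay in sequences already well represented at 9 DPA. Of the 2092 higher sequences, 98 had 3 reads or fewer at 9 DPA, and these held 0.3018% of reads at 14 DPA and 0.003703% at 9 DPA. The 55 with more than 1000 reads at 9 DPA held 18.18% at 14 DPA and 3.901% at 9 DPA, a median of 7.61-fold higher with TMM. Another 280 with more than 100 and up to 1000 reads at 9 DPA held 10.6% at 14 DPA and 1.841% at 9 DPA. Of the 1325 lower sequences, 282 had 3 reads or fewer at 14 DPA at equal depth, and these held 0.01589% of reads at 14 DPA and 1.014% at 9 DPA. No sequence (0) with more than 1000 reads at 14 DPA was among the lower ones.

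Sequences found at a single stage were few, and which stage had more of them depended on the scaling. At equal depth 1604 sequences had at least 10 reads at 9 DPA and none at 14 DPA, 3.91% of the 40991 with at least 10 reads at 9 DPA. In the other direction 391 had at least 10 reads at 14 DPA and none at 9 DPA, 1.24% of 31606. Equal depth here means equal library totals. With the 9 DPA library thinned further by the TMM factor of 1.71, to 2399738 reads, 612 (1.99%) were found at 9 DPA only and 698 (2.21%) at 14 DPA only, so the direction turned. A count of 0 at this depth allows up to 3 reads, or 0.7309 RPM (reads scaled to the library total only). In the unthinned 14 DPA library, with a limit of 0.07999 RPM, 187 of the 1604 still had no reads, 974 had 1 to 10 and 443 had more than 10. Among the 1604, 51.1% had identifiers that do not begin with TC, against 25.6% of all sequences with at least 10 reads at 9 DPA. Among the 391 the share was 29.7%, against 19.9% of all with at least 10 reads at 14 DPA. Of the 391, 291 (74.4%) had reads in the 6 DPA starchy endosperm at equal depth. Of all sequences with at least 10 reads at 14 DPA, 98.1% had such reads. The 1604 had a median of 14 reads at 9 DPA and the 391 a median of 16 at 14 DPA. The sets they are compared with also hold far more abundant sequences, and level was not matched.

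Sequences with many reads over the pair were more often higher than those with few, but the mean of the pair is itself raised by a high count at 14 DPA, so the classes describe the sequences and test nothing. Of the 76 sequences with a mean of at least 5000 reads over the pair, 37 (48.7%) were higher at 14 DPA with TMM and none (0) lower, and 34.2% were higher with library totals. Among the 313 with means of 1000 to 5000 reads, 33.5% were higher and 3.51% lower with TMM, and 24.9% and 7.67% with library totals. Among the 6173 with means of 50 to 100 reads, 617 were higher and 406 lower with TMM, and 5.01% and 15.8% with library totals. The background is 12.7% higher and 8.07% lower. Of the 100 most abundant sequences at 9 DPA, 17 were higher and 2 lower at 14 DPA with TMM, and 8 higher and 7 lower with library totals. The read classes are not levels per length. In the class below a mean of 50 reads, the requirement of 50 reads in the higher library leaves only unequal pairs.

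**Figure D4:**
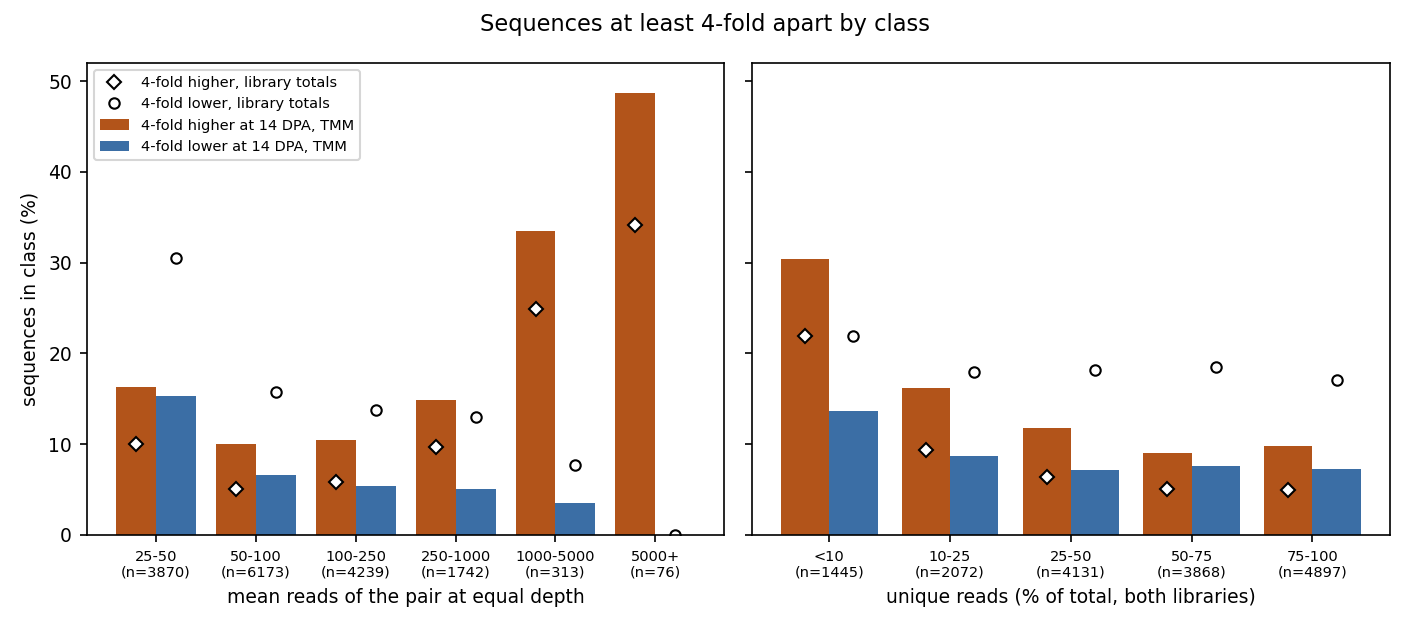
Share of sequences at least 4-fold higher or lower at 14 DPA (y axis, percent) by mean reads of the pair (left) and by the share of unique reads (right), with bars for TMM and open symbols for library totals. Higher sequences reach 48.7% in the class of 5000 or more reads and 30.4% where fewer than 10% of reads are unique.

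The higher sequences had smaller shares of unique reads, as counted by the authors. The median share of unique reads, pooled over both libraries, was 37.6% for the 2092 higher sequences, 48.8% for the 1325 lower ones and 56.5% for those within 4-fold. The pooling used unthinned counts, in which the 14 DPA library was 9.137 times deeper. The shares of higher sequences therefore rest mostly on 14 DPA reads, and those of lower sequences rest more on 9 DPA reads. Of the 1445 sequences with under 10% unique reads, 30.4% were higher and 13.7% lower with TMM, and 21.9% each with library totals. Of the 4897 with at least 75% unique reads, 9.76% were higher and 7.27% lower with TMM. The contrast in higher sequences was also present within a range of mean reads. That mean is itself raised by a high count at 14 DPA. Among sequences with means of 100 to 1000 reads, 33.3% of the 543 with under 10% unique reads were higher with TMM. Of the 1497 with at least 75%, 8.95% were higher. The shares lower were closer, 7.92% and 6.08%. The authors' rule for reads with several matches is not known here, so the values of similar sequences are uncertain.

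On unique reads alone, 1024 of the 2092 higher sequences had enough reads to be considered. Of these 907 (88.6%) were again at least 4-fold higher and none (0) was 4-fold lower, with TMM. Of 605 lower sequences considered, 499 (82.5%) were again lower and none (0) higher. The unique reads are a part of the total reads and no independent measure.

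A pair of higher sequences is described next, picked as extremes and not as typical of the 2092. TC434009 (672 bases) had the largest gain in reads among the sequences higher under both scalings. It had 27030 RPKM at 14 DPA and 1840 RPKM at 9 DPA, and 2246 RPKM in the 6 DPA starchy endosperm. It was the most abundant sequence at 14 DPA, with 1.82% of all reads, and ranked 46 at 9 DPA with 0.124%. At equal depth it had 74651 reads at 14 DPA and 5075 at 9 DPA, 25.2-fold higher with TMM (exact 95% interval 24.5 to 25.9) and 14.7-fold higher with library totals (14.3 to 15.1). The interval is narrow because the counts are large, and the choice of scaling moves the value by more. Of its reads 43.9% were unique at 14 DPA and 26.7% at 9 DPA. In aleurone TC434009 had 12.7 RPKM at 6 DPA, 19.9 at 9 DPA and 2244 at 14 DPA.

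TC369313 (1137 bases) had, among the same sequences, the counting interval farthest above 1. It had 2678 RPKM at 14 DPA and 8.357 RPKM at 9 DPA, and 15.4 RPKM in the 6 DPA starchy endosperm, where 534 reads were counted. At equal depth these were 12552 reads at 14 DPA and 39 at 9 DPA, and its rank was 37 at 14 DPA and 16881 at 9 DPA. It was 551-fold higher with TMM (exact 95% interval 402 to 775) and 322-fold higher with library totals (235 to 453). None (0) of the 39 reads at 9 DPA was unique, against 18.5% at 14 DPA, so its level at 9 DPA rests on reads that match other sequences too. In aleurone TC369313 had 0.13 RPKM at 6 DPA, 0.387 at 9 DPA and 85.3 at 14 DPA.

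Among the sequences lower under both scalings, TC405642 (658 bases) had the largest loss in reads. It had 0.041 RPKM at 14 DPA, from 1 read in the unthinned library, and 1838 RPKM at 9 DPA, from 4963 reads. At 6 DPA the starchy endosperm had 959 RPKM. TC405642 ranked 49 at 9 DPA. Without thinning its ratio of 9 to 14 DPA had an exact 95% interval of 5020 to 1110000 with TMM and 8130 to 1790000 with library totals. At equal depth it had no reads at 14 DPA, and with 14 DPA set at 3 reads it was at least 967-fold lower with TMM and at least 1650-fold lower with library totals. In aleurone TC405642 had 23.1 RPKM at 6 DPA, 45.4 at 9 DPA and 0.12 at 14 DPA.

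TC415795 (574 bases) came next after TC405642 by the counting interval of its ratio. It had 0.186 RPKM at 14 DPA, from 4 reads, and 547 RPKM at 9 DPA, from 1289 reads, of which 70.5% were unique. The 6 DPA starchy endosperm had 130 RPKM, so the level was highest at 9 DPA among the 3 stages. Its ratio of 9 to 14 DPA without thinning was 1820 with TMM (exact 95% interval 708 to 6680) and 2940 with library totals (1150 to 10800). In aleurone TC415795 had 3.337 RPKM at 6 DPA, 8.808 at 9 DPA and no reads at 14 DPA.

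The called sequences were then followed in the libraries that took no part in their choice. At 6, 9 and 14 DPA the median level of the 2092 higher sequences was 14.1, 8.02 and 37.5 RPKM in starchy endosperm, and 8.36, 4.46 and 17.9 RPKM in aleurone. For the 1325 lower sequences the medians were 16.4, 32.1 and 2.76 RPKM in starchy endosperm, and 7.71, 11.3 and 6.24 RPKM in aleurone. The sequences within 4-fold had medians of 22.5, 25.7 and 17.1 RPKM in starchy endosperm, and 20.2, 18.9 and 21.03 RPKM in aleurone. The higher and lower sets were called with TMM, while RPKM is scaled to library totals. Relative to TMM, RPKM places 14 DPA starchy endosperm lower against 9 DPA by a factor of 1.71. The 9 and 14 DPA starchy endosperm levels chose the sets, so only the 6 DPA and aleurone levels are free of that choice. Both 9 DPA libraries were shallow, and an effect that the libraries of a stage share cannot be told apart from the stage.

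**Figure D5:**
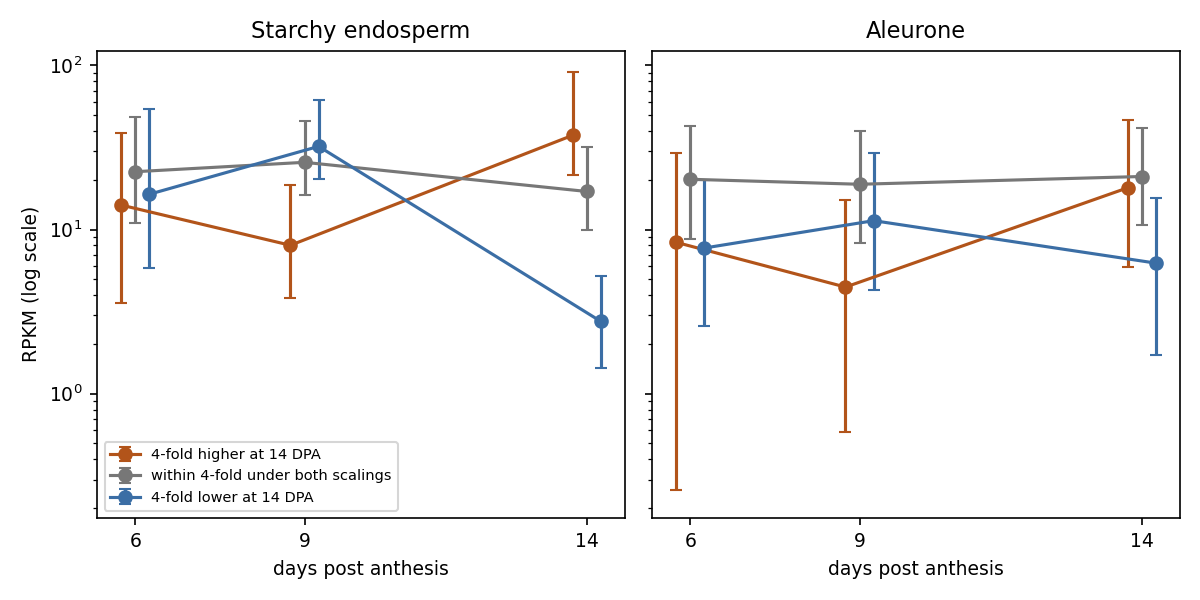
Median level with quartiles (y axis, RPKM, log scale) of sequences at least 4-fold higher (orange) or lower (blue) at 14 DPA with TMM and of those within 4-fold (grey), at 6, 9 and 14 DPA in starchy endosperm (left) and aleurone (right). RPKM is scaled to library totals and not by TMM. In aleurone the higher set had a median of 17.9 RPKM at 14 DPA and 4.46 at 9 DPA.

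In aleurone, which shares no library with this comparison, the higher sequences were often higher at 14 DPA as well. Of the 21734 sequences considered in aleurone, 33.0% were at least 4-fold apart at 14 DPA with TMM, 17.0% higher and 16.0% lower. With library totals 33.3% were apart, 16.1% higher and 17.2% lower. Of the 12165 considered in both tissues, 14.8% were higher and 5.57% lower in aleurone. Of the 1304 higher sequences of starchy endosperm considered in aleurone, 669 (51.3%) were higher there and 68 (5.21%) lower, with a median log2 ratio of 2.07. Of the 667 lower sequences considered in aleurone, 168 (25.2%) were lower there and 47 (7.05%) higher, with a median log2 ratio of -0.81. The rest of the 2092 higher and 1325 lower sequences had under 50 reads in both aleurone libraries at equal depth. A sequence could enter only through the aleurone library where it was high. The 2092 had a median of 3.737 RPM in 9 DPA aleurone and 15.62 RPM in 14 DPA aleurone. The read minimum thus favours those higher at 14 DPA, and the 51.3% does not describe all 2092. Of the 93 sequences that made up 50% of the read gain, 90 were considered in aleurone and 87 were at least 4-fold higher there. The 93 were picked by their gain in starchy endosperm reads. Transfer of starchy endosperm RNA into the 14 DPA aleurone dissection would raise them there too, and its part was not tested.

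The sequences that led in 14 DPA starchy endosperm held a far smaller share of the aleurone reads. They were picked on their starchy endosperm level, so part of that contrast is set by the choice. Over all 16413 sequences considered, the median at 14 DPA was 16.03 RPKM for the starchy endosperm library, against 18.41 for the aleurone library. The 100 most abundant sequences of 14 DPA starchy endosperm held 32.27% of its reads and 1.748% of the 14 DPA aleurone reads. In the aleurone at 9 and 6 DPA their shares were 0.1579% and 0.06308%. Per sequence, the RPM in 14 DPA starchy endosperm was a median of 21.7 times that in 14 DPA aleurone, with quartiles of 15.2 and 29.7. Transfer of starchy endosperm RNA into the aleurone dissection moves the same way as these values, and its part in them was not tested.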

How the data were processed

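Total RNA of dissected tissue was copied and amplified with MessageAmpII, using a primer that let the poly(A) tail be cut off, amplified by PCR for 15 cycles and sequenced on a Genome Analyzer IIx, per the labels' protocols. The aligner, its settings and the sequence set version were not given in the sources used here. The authors deposited raw read counts per sequence (total and unique reads), RPKM, sequence lengths and, for the 6 DPA libraries, a transformed score, which was not used. Deposited RPKM differed from values recomputed from total counts by at most 5e-04 in the 14 DPA library.

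Total read counts were used. The 14 DPA library was thinned without replacement to 4104682 reads. TMM factors (edgeR 4.0.16, R 4.3.3) were taken over the 45638 sequences that reached 10 reads in at least 1 library of the pair. A sequence was considered when its higher count was at least 50, counts under 3 were set at 3, and 4-fold was the limit. Aleurone was treated alike. Alternatives used DESeq2 1.42.0 size factors, other limits, unique reads, full depth and 20 other thinnings. The procedure was tested on simulated libraries drawn from a shared profile. As many sequences were raised as lowered, so the simulation cannot judge the choice of scaling. Intervals (Clopper-Pearson, 95%) cover counting error only, as PCR copies were not told apart.

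Named sequences were, per direction, that with the largest change in RPM and that whose interval lay farthest from 1 (the next in order where both were the same sequence), among those called under both scalings. Thinning 9 DPA further by the TMM factor was chosen after seeing the data. The comparison, sets and rules were chosen with earlier results of these data known.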

Additional observations from a re-analysis of the deposited data

Results flagged for a closer look

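Between 14 and 9 DPA, 68 sequences had a level in starchy endosperm at least 4-fold higher, and in aleurone at least 4-fold lower, with TMM. For 47 the starchy endosperm level was at least 4-fold lower and the aleurone level at least 4-fold higher. What drew attention is that the tissues went opposite ways, and the difference between the tissues was not tested, as there was 1 library per tissue and stage. With library totals the numbers were 37 and 93. In the same direction, 669 sequences were higher and 168 lower in both tissues with TMM. All these counts are out of 12165 sequences considered in both tissues. With TMM, the 68 are 5.21% of the 1304 higher sequences considered in aleurone, against 5.57% lower in aleurone over all 12165. The 47 are 7.05% of the 667 lower sequences considered there, against 14.8% higher over all 12165. Neither share was above that over all sequences.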

How the results depend on the processing

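The 4-fold counts (2092 higher and 1325 lower at 14 DPA with TMM at equal depth) stayed within 1.5 times with TMM over all 6 libraries (1907 and 1512), DESeq2 size factors (2141 and 1277), without the 100 sequences with most reads (2044 and 1325), with low counts set at 1 or 10 reads, and in 20 other thinnings (2074 to 2137 higher, 1319 to 1360 lower). Library totals gave 1215 and 2992. At full depth TMM gave 5679 and 1438 (79.8% higher), and library totals 2697 and 3829 (41.3% higher); the read minimum favours the deeper library there. A minimum of 20 reads gave 3790 and 3051, and of 100 reads 1235 and 677. Unique reads gave 1175 and 711 with TMM, and 816 and 1210 (40.3% higher) with library totals. An 8-fold limit gave 1033 and 540, and a 2-fold limit 4296 and 3749. The limits and minimums change the counts by their construction, and on unique reads 8559 sequences were considered, against 16413. The share of reads on other sequences (41.65%) was 41.38% at full depth, 40.66% on unique reads and at lowest 41.59% in other thinnings. The share of the leading 100 at 14 DPA (32.27%) was 25.001% on unique reads. Of 46 alternative values of the 4 named sequences, 13 lay outside the counting interval of the reported ratio, such as a log2 ratio of -8.18 in place of -9.92 for TC405642 with low counts set at 10 reads. These sequences were picked as extreme, so none changing direction (0) is no sign of stability. With 9 DPA thinned further by the TMM factor, the sequences found at 9 DPA only went to 612 (1604 at equal totals) and those at 14 DPA only to 698 (391). No paired analysis was possible because there was 1 library per group and the result comes from no test. The shallow 9 DPA library limits what can be said of sequences under 50 reads.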

Other observations

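Shorter sequences were more often far apart between the stages. The first classes hold sequences with means of 100 to 1000 reads at equal depth, with TMM. Of the 286 shorter than 500 bases, 50 (17.5%) were at least 4-fold higher at 14 DPA and 48 (16.8%) lower. Of the 1100 with 1500 bases or more, 60 (5.45%) were higher and 32 (2.91%) lower. Over all 16413 sequences considered, at any mean, 12.7% were higher and 8.07% lower. With library totals the shares were 11.5% higher and 24.8% lower for the shorter and 3.09% higher and 10.2% lower for the longer sequences. Over all considered they were 7.4% higher and 18.2% lower. In the same read range, 109 of the 592 sequences whose identifiers do not begin with TC were higher and 71 lower with TMM, against 595 and 245 of the 5389 that do. In that read range the median length was 601.5 bases for identifiers of other forms and 1069 for TC sequences, and the separate parts of length and kind were not tested.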
